A study of Mus musculus with 17 samples.

Results

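The 36 genes described here encode proteins of the lysosome, and they were chosen by gene symbol and not by their values. They comprised 8 cysteine cathepsins, 4 other proteases, 10 glycosidases, 2 sulfatases, 3 hydrolases of lipids and thioesters, 4 genes of lipid handling and of partners of the hydrolases, 4 genes of the lysosomal membrane and 1 transcription factor, Tfeb. All 36 were listed in at least 1 library, out of 18836 genes listed in any.

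The RNA-seq data came from mouse neural retinal progenitor cells (mNRPCs), which are grown from the neural retina of adult C57BL/6 mice and which the study expanded in a basic medium (BM) with bFGF and CHIR99021. bFGF is a fibroblast growth factor, and CHIR99021 is a small-molecule inhibitor of the kinase GSK-3. There were 17 libraries, with 1 day 0 library labelled as untreated and, on days 1, 3, 5 and 7, 1 library from BM alone (BM), 1 given bFGF (B), 1 given CHIR99021 (C) and 1 given both agents (BC). The study's text calls day 0 both a culture in BM and the state before treatment, so this library served as an untested reference and not as a known starting point. Each treatment and day was 1 library, so nothing here measures the spread between cultures.

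The lysosome is the acidic compartment in which cells break down proteins, sugar chains and lipids delivered by endocytosis and autophagy. Its soluble hydrolases are made as precursors in the secretory route, sorted to the lysosome mostly by a mannose 6-phosphate tag, and matured by cleavage in the acid that a proton pump, the V-ATPase, provides. Many of these genes carry a short element near the start of transcription that the factor TFEB and its relatives bind, and loss of single hydrolases causes storage diseases, several of which affect the retina.

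Promoter windows from RefSeq on the GRCm38.p6 build, 250 bases before to 50 after the start of transcription, were found for 32 of the 36 genes, in 37 windows. The hexamer CACGTG, the core of the element that TFEB binds, reads the same on both strands. It occurred in 12 of these 37 windows (32.4%), against 7.15% of all 32851 windows of the same length. The longer form TCACGTGA, which contains the hexamer and also reads the same on both strands, occurred in 4 of the 37 (10.8%), for Ctsa, Ctsd, Gla and Mcoln1, against 0.974% of all windows. The 12 genes with the hexamer were Ctsa, Ctsd, Ctsf, Ctsl, Gaa, Gla, Glb1, Lamp1, Lgmn, Mcoln1, Naglu and Sgsh. A match in letters does not show that a factor binds there, and the genes were chosen as lysosomal genes, a group in which this element is known.

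Stretches of 100 bases upstream of the start, outside any gene of the RefSeq table, are shown for 6 of the 12 genes because they hold the hexamer, which is in capitals, in genes that later rose with bFGF (Naglu and Glb1), fell with it (Ctsf) or differed in sign with the scaling (Mcoln1), beside the 2 abundant genes Lamp1 and Ctsd. The stretches lie at chr8:13159061-13159160 (plus strand, Lamp1), chr8:3500419-3500518 (plus strand, Mcoln1), chr7:142387858-142387957 (minus strand, Ctsd), chr11:101069990-101070089 (plus strand, Naglu), chr9:114400978-114401077 (plus strand, Glb1) and chr19:4855065-4855164 (plus strand, Ctsf).
Lamp1: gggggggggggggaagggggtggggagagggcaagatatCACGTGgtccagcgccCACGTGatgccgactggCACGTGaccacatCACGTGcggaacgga
Mcoln1: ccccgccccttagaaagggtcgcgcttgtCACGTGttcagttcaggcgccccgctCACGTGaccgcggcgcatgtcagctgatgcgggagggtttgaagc
Ctsd: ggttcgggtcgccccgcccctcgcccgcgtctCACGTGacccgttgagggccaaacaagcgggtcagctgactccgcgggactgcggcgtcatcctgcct
Naglu: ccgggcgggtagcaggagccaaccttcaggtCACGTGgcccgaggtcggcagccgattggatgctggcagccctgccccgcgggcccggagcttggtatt
Glb1: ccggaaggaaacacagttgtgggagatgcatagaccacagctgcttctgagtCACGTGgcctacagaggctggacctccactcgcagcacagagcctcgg
Ctsf: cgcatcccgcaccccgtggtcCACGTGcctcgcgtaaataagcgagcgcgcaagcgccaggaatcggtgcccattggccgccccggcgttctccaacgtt
The Lamp1 stretch held 4 copies of the hexamer, at positions -61, -45, -28 and -15 from the start of transcription. The Mcoln1 stretch held 2, at -71 and -45, and the second of these is part of the longer form. The hexamers of the other stretches began at -98 (Ctsd, also part of the longer form), -73 (Naglu), -48 (Glb1) and -79 (Ctsf).

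The libraries were even in depth, with total expected counts of 17571973 to 19428744. Of the 9 retinal progenitor markers, 6 had a mean FPKM (fragments per unit of transcript length and of library size) of at least 1 over the 16 cultured libraries, while Rax stayed at or below 0.07 in every library. None of the 9 photoreceptor markers and none of 14 microglia and macrophage markers reached a mean FPKM of 1. The summed microglia and macrophage list was 0.67 to 4.63 FPKM without bFGF and 0.33 to 3.53 with bFGF, with P2ry12 at 0.02 FPKM or less everywhere. Of that list Cx3cr1 was at 0.02 to 0.10 FPKM without bFGF and reached 2.25 with it. Tmem119 and Fcer1g went the other way, reaching 1.87 and 1.25 FPKM without bFGF and 1.58 and 0.25 with it. The other 11 markers stayed below 1 FPKM in every library. The part of such cells in the results was not tested. The summed blood vessel and fibroblast list moved with bFGF, at 15.1 to 160.6 FPKM without it and 6.20 to 34.6 with it, mostly through Pdgfrb and Col1a1. Of its 10 markers, 5 stayed below 1 FPKM in every library, namely Pecam1, Cdh5, Tek, Rgs5 and Lum, all at or below 0.10. Whether such cells were present, and their part in the results below, was not tested.

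Ctsd, which encodes the aspartic protease cathepsin D, had the highest mean FPKM over the cultured libraries (1036), followed by the cysteine cathepsins Ctsb (823) and Ctsl (737) and by Psap (634), the precursor of the saposins that present lipids to hydrolases. The 4 most abundant genes of a library, which were these except that Grn took the place of Ctsl in the C library of day 5, held 46.9% to 63.6% of the summed FPKM of the 36 genes. Tfeb (9.74), Idua (9.23) and Sgsh (3.92) had the lowest means among the 33 genes whose mean FPKM reached 1. The other 3 were the cathepsins Ctsk (0.48), Ctsh (0.35) and Ctss (0.20), of which Ctsk is typical of osteoclasts and Ctss of antigen-presenting cells. They were at or under 0.80 FPKM and 23 counts in every library, did not pass the filter and were not tested.

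Most of the genes were listed higher in the cultured libraries than on day 0, with 29 to 33 of the 33 above it in each library, and most of the difference was present by day 3. In bulk RNA, fewer cells of a type and less RNA per cell cannot be told apart, here and in all results that follow. The 36 genes together took 0.395% of all FPKM in the day 0 library. They took 0.554% to 0.633% on day 1, 1.03% to 1.43% on day 3 and 1.47% to 1.73% on day 7. In the BM library of day 1, 11 of the 33 genes were higher than day 0 by at least 1 on the log2(FPKM + 1) scale, where 7.15% of all genes were. In the B library of day 1, 4 were (3.71% of all genes). By day 7 this held for 24 genes in BM (21.1% of all genes), 27 in C (21.5%), 28 in B (11.9%) and 28 in BC (12.1%). With 1 library on each side these counts have no test. Gusb, which encodes beta-glucuronidase, was the 1 gene lower than day 0 by that amount in B and BC from day 3 on, at 8.51 to 13.3 FPKM against 28.0 on day 0. Of all genes, 12.4% in B and 14.2% in BC were lower by that amount on day 3, 23.2% in both on day 5, and 23.2% and 25.6% on day 7.

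**Figure D1:**
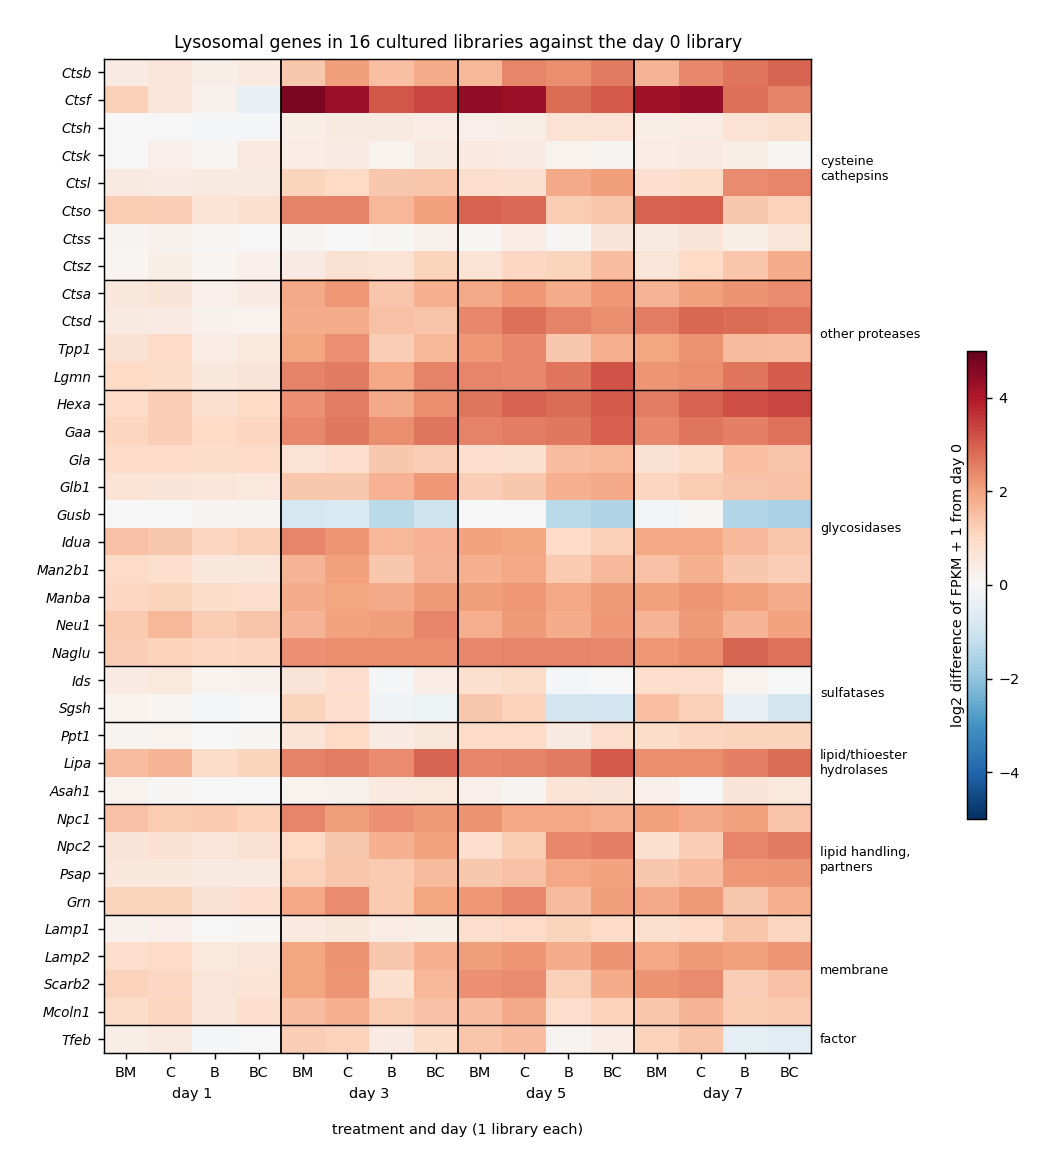
Each cell is the log2 difference of FPKM + 1 between 1 cultured library (columns, by day and treatment) and the day 0 library, for the 36 genes (rows, by role). Most rows turn red by day 3 in all 4 treatments, while Gusb, Sgsh and Tfeb are blue with bFGF (B and BC) on day 7.

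The change between days 1 and 3 was tested separately without bFGF (BM and C) and with it (B and BC), in a fit of day by bFGF with CHIR99021 as a covariate. Without bFGF, 30 of 33 genes rose and 1 fell between days 1 and 3, where 35.4% of all 11272 tested genes rose and 32.0% fell (edgeR, adjusted p under 0.05). With bFGF the count was again 30 higher and 1 lower, where 32.4% of all genes rose and 32.9% fell. The median log2 fold change of the 33 genes was 0.93 without bFGF and 1.03 with it, against 0.06 and 0.01 over all tested genes. Without bFGF 29 genes rose under each of 7 scalings and tools, with bFGF 30 did, and Gusb fell under all 7 in both states. Of all genes, 30.7% rose and 30.4% fell under all 7 without bFGF, and 27% and 30.1% with it. When 1 library was left out in turn, 27 of the 30 rises without bFGF passed the test in each of the 16 fits, the others being Ctsz, Ids and Lamp1, and 28 of 30 did with bFGF, the others being Lamp1 and Scarb2. The errors here come from how libraries of 1 day and bFGF state depart from the fitted effects, mostly between a library with CHIR99021 and 1 without, and p-values measure no spread between cultures.

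The proteases rose in this interval, as did most of the 33 genes. Of all tested genes, 35.4% rose without bFGF and 32.4% with it. All 5 tested cysteine cathepsins and all 4 other proteases were higher on day 3 than on day 1, both without and with bFGF. Ctsf, which encodes cathepsin F, stood apart in size. It had 1.38 FPKM on day 0. The BM, C, B and BC libraries had 4.49, 2.59, 1.79 and 0.86 FPKM on day 1, and 60.3, 47.0, 19.5 and 23.1 in the same order on day 3. Its log2 fold change from day 1 to day 3 was 3.94 ± 0.25 (SE) without bFGF and 4.04 ± 0.28 with it (edgeR adjusted p = 7.87e-08 and 2.41e-07). The day 3 libraries lay above every day 1 library in both states. Lgmn, which encodes legumain, a protease that matures cathepsins, rose by 1.61 ± 0.15 on the log2 scale without bFGF and by 1.65 ± 0.15 with it. Ctsd rose by 1.43 ± 0.13 and 1.28 ± 0.13, and Ctsb by 1.27 ± 0.17 and 1.33 ± 0.17.

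Of the 10 glycosidases, which take sugar chains apart from the end, 8 rose and 1 fell without bFGF (35.4% and 32.0% of all tested genes). With bFGF 9 rose and 1 fell (32.4% and 32.9%). Gaa, the acid alpha-glucosidase that digests lysosomal glycogen, rose by 1.42 ± 0.09 on the log2 scale without bFGF and 1.50 ± 0.09 with it. Hexa, the alpha subunit of beta-hexosaminidase, rose by 1.36 ± 0.08 and 1.25 ± 0.08. Gusb went the other way, from 27.3 (BM) and 27.6 FPKM (C) on day 1 to 14.8 and 16.3 on day 3, and from 30.9 (B) and 30.7 (BC) to 10.3 and 13.3. Its log2 fold change was -0.80 ± 0.11 without bFGF and -1.36 ± 0.11 with it (edgeR adjusted p = 5.14e-05 and 1.04e-06). The 4 genes of the membrane rose in both states, namely Lamp1 and Lamp2, the main glycoproteins of the lysosomal membrane, Scarb2, the carrier of glucocerebrosidase, and Mcoln1, a calcium channel. The rise of Lamp1 was 0.31 without bFGF (edgeR adjusted p = 0.0241) and passed the test in 8 of the 16 fits without 1 library, against 13 of 16 with bFGF. The 2 sulfatases Sgsh and Ids, which remove sulfate from heparan sulfate, rose without bFGF, and neither passed the test with it. The rise of Ids (0.33, edgeR adjusted p = 0.0271) passed the test in 6 of the 16 fits without 1 library and was not called under all 7 scalings and tools.

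Other lysosomal genes were counted from lists of textbook membership, to be read against the 35.4% of all tested genes that rose and 32.0% that fell without bFGF, and 32.4% and 32.9% with it. Of 18 tested further hydrolases and activators, 15 rose and none fell between days 1 and 3 without bFGF, and 13 rose and none fell with it. Of 14 further membrane proteins, 10 rose without bFGF and 12 with it, and none fell. Of 17 V-ATPase subunits, 9 rose and none fell without bFGF, and 7 rose and 2 fell with it. Of 16 genes of mannose 6-phosphate tagging and sorting, 9 rose and 1 fell without bFGF, and 7 rose and 1 fell with it. Among 25 autophagy genes, 16 rose and 1 fell without bFGF, and 14 rose and 3 fell with it. Of 20 genes of the MiT/TFE factors and of the mTORC1 machinery, which controls them at the lysosome, 6 rose and 2 fell without bFGF, and 10 rose and 3 fell with it. The median log2 fold change without bFGF was 0.88 for the further hydrolases and 0.87 for the further membrane proteins, but 0.26 for the V-ATPase, 0.30 for the sorting genes and 0.17 for the MiT/TFE and mTORC1 genes.

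After day 3 more of the genes were called with bFGF than without it, and the change from day 3 to day 7 was not tested between the states. Between days 3 and 7 without bFGF, 4 of 33 genes rose and 2 fell, near the 9.15% and 9.25% of all tested genes that did. The 4 were Ctsd (log2 fold change 0.85 ± 0.13), Gusb (0.76 ± 0.11), Ctso (0.50 ± 0.11) and Hexa (0.30 ± 0.08), and the 2 were Idua (-0.37 ± 0.09) and Npc1 (-0.33 ± 0.10). The count of genes that rose was 2 to 6 when 1 library was left out, with changes beyond 1.5 times for each of the 4 libraries of days 3 and 7 without bFGF. With bFGF, 23 of 33 genes rose and 1 fell, where 32.7% of all tested genes rose and 33.6% fell. The bFGF libraries of days 5 and 7 were those in which scaling mattered. Their TMM factors were 0.754 to 0.816, against 1.10 to 1.13 in the libraries of the same days without bFGF. Scaled to total counts, 14 of the 33 genes rose with bFGF and 8 fell, while 16% of all genes rose and 54.6% fell, and the median gene changed by -0.42 on the log2 scale. Against that shift the 33 genes had a median of 0.10. Without bFGF the same scaling gave 5 genes that rose and 1 that fell, where 11.6% and 7.6% of all genes did. The median there was 0.04 for the 33 genes and 0.05 for all genes.

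Genes that rose from day 3 to day 7 with bFGF under each of 7 scalings and tools were Ctsa, Ctsb, Ctsd, Ctsl, Ctsz, Lamp1, Hexa, Ppt1 and Naglu, and the 1 gene that fell under all 7 was Tfeb. Of all genes, 12.6% rose and 22.2% fell under all 7. Ctsd had 676 (B) and 663 FPKM (BC) on day 3, and 1719 and 1620 on day 7. Its log2 fold change was 1.73 ± 0.13 (edgeR adjusted p = 9.08e-07). Ctsl, which encodes the broad endopeptidase cathepsin L, went from 750 and 756 FPKM to 1495 and 1564, a log2 fold change of 1.43 ± 0.09. Hexa had a log2 fold change of 1.58 ± 0.08, and Lamp1 of 1.30 ± 0.11. In Tfeb, the factor that drives many lysosomal genes, the 2 libraries had 7.60 and 11.1 FPKM on day 3 and were lower on day 7, at 3.79 and 3.33. Its log2 fold change was -1.01 ± 0.15 (edgeR adjusted p = 9.18e-05).

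**Figure D2:**
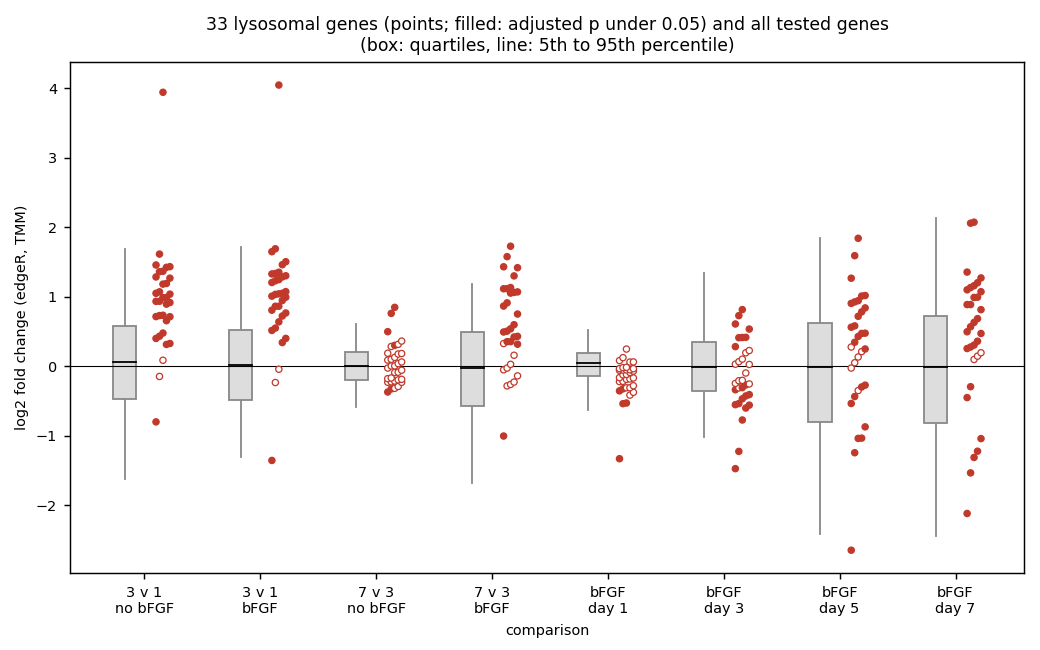
Log2 fold changes (vertical axis, edgeR with TMM scaling) of the 33 tested lysosomal genes in 8 comparisons, beside the quartiles and the 5th to 95th percentiles of all 11272 tested genes. The points lie mostly above the median of all genes from day 1 to day 3 in both states and from day 3 to day 7 with bFGF, spread around 0 from day 3 to day 7 without bFGF, and fall on both sides of 0 for bFGF on days 3, 5 and 7.

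The effect of bFGF on a given day was read from the same fit, as B and BC against BM and C. On day 1 none of the 33 genes was higher and 5 were lower with bFGF, where 6.21% of all tested genes were higher and 4.46% lower. Among those higher, 1 gene, Gusb, had an unadjusted p under 0.05 in edgeR, and DESeq2 and limma called none. The 5 were Ctsf, Ctso, Lipa, Idua and Tpp1, and Ctsf, at 1.79 and 0.86 FPKM with bFGF against 4.49 and 2.59 without, had the largest change (-1.33 ± 0.31 on the log2 scale, edgeR adjusted p = 0.0209). Leaving out any 1 of the day 1 libraries lowered this count by more than 1.5 times, and over all 16 fits without 1 library it was 0 to 7. On day 3, 8 genes were higher and 13 lower (25.4% and 25.0% of all tested genes). Without the B library of day 3, 6 were lower. On day 5, 18 were higher and 9 lower, where 37.2% of all genes were higher and 38.6% lower. On day 7, 23 were higher and 7 lower, where 38.8% were higher and 39.6% lower.

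Scaled to total counts, bFGF on day 7 left 14 of the 33 genes higher and 12 lower, where 21.9% of all genes were higher and 59.0% lower and the median gene was at -0.54 on the log2 scale. The same scaling gave 10 higher and 13 lower on day 5 (21.3% and 56.7% of all genes), and 7 higher and 17 lower on day 3 (21.3% and 31.8%). After quantile normalization of log2(FPKM + 1) the counts on day 7 were 7 higher and 13 lower, where 36.5% of all genes were higher and 37.1% lower. Among the 33 genes, a rise or fall with bFGF is therefore stated below for those called in 1 direction under each of the 7 scalings and tools. These were 6 higher and 6 lower on day 7. Of all genes, 20% were higher and 31.2% lower on that day under all 7, so the shares of the 33 genes are not above the background. Over days 1 to 7 together, in an additive fit of day, bFGF and CHIR99021, 12 genes were higher and 9 lower with bFGF (34.6% and 33.9% of all tested genes), and 7 and 14 under total counts (19.9% and 50.6%). Ctsz, Gla, Glb1 and Npc2 were higher in that fit under all 7, and Ctsf, Ctso, Gusb, Idua, Ids, Tpp1, Scarb2, Sgsh and Tfeb were lower, where 18.7% of all genes were higher and 28.7% lower under all 7.

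The 6 genes higher with bFGF on day 7 under all 7 were Ctsl, Ctsz, Npc2, Gla, Glb1 and Naglu. Ctsl had 291 FPKM on day 0 and 386 to 402 in the 4 libraries of day 1. The BM, C, B and BC libraries had 632, 577, 750 and 756 FPKM on day 3, 534, 514, 1089 and 1233 on day 5, and 523, 548, 1495 and 1564 on day 7. The libraries without bFGF stayed near their day 3 level, and both bFGF libraries lay above both others on each day from day 3. How many of all genes separate in this way is not given, so here and for other genes a separation is description only. The log2 fold change with bFGF on day 7 was 2.06 ± 0.09 (edgeR adjusted p = 4.36e-09), and 1.52 ± 0.09 under total counts.

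Npc2, a soluble protein that carries cholesterol out of the lysosome, followed the same course. It had 48.0 FPKM on day 0 and 74.4 to 82.1 on day 1. On day 7 it had 84.4 (BM) and 114 FPKM (C) without bFGF and 268 (B) and 299 (BC) with it, and the groups did not overlap. The log2 fold change on day 7 was 2.07 ± 0.11 (edgeR adjusted p = 8.62e-09). Npc1, the membrane protein that takes cholesterol from Npc2, did not share this course, with 33.0 and 29.3 FPKM without bFGF and 32.6 and 21.0 with it on day 7 and a sign that depended on the scaling (log2 fold change 0.30 ± 0.10 with TMM and -0.23 ± 0.11 with total counts).

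Ctsz, a carboxypeptidase of the cathepsin family, had 195 (BM) and 257 FPKM (C) without bFGF and 334 (B) and 459 (BC) with it on day 7, with a log2 fold change of 1.35 ± 0.10. Gla, the alpha-galactosidase that is missing in Fabry disease, had 12.7 and 14.6 FPKM without bFGF and 22.0 and 21.0 with it (1.20 ± 0.10). Both bFGF libraries were above both others for each of these genes. Naglu, an enzyme of heparan sulfate breakdown, had 43.8 and 49.1 FPKM without bFGF and 73.1 and 63.7 with it (1.10 ± 0.09). Glb1, the lysosomal beta-galactosidase, had 31.3 and 35.2 without bFGF and 39.4 and 40.6 with it (0.81 ± 0.11). On day 3 it had 37.4 and 38.0 FPKM without bFGF and 49.9 and 67.5 with it.

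The 6 genes lower with bFGF on day 7 under all 7 were Sgsh, Tfeb, Ctso, Ctsf, Gusb and Scarb2. Sgsh, the N-sulfoglucosamine sulfohydrolase of heparan sulfate breakdown, had 2.56 FPKM on day 0 and 2.45 to 3.03 on day 1. It reached 9.05 (BM) and 7.15 FPKM (C) on day 7, while B had 1.73 and BC 0.87. The bFGF libraries thus ended below day 0 and the others above it, with a log2 fold change of -2.12 ± 0.17 on day 7 (edgeR adjusted p = 2.94e-07). The counts behind the lowest values were 137 (B) and 68.1 (BC) on day 7, where BM had 722 and C had 577. Naglu and Sgsh act in the same breakdown of heparan sulfate, and on day 7 the first was higher and the second lower with bFGF.

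Tfeb itself was lower with bFGF on each day from day 3. It had 5.49 FPKM on day 0. In the order BM, C, B and BC it had 14.1, 13.3, 7.60 and 11.1 FPKM on day 3, 16.1, 17.9, 6.12 and 7.46 on day 5, and 13.4, 16.3, 3.79 and 3.33 on day 7. The groups did not overlap on any of these days, and the log2 fold change was -0.47 ± 0.14 on day 3, -0.87 ± 0.14 on day 5 and -1.54 ± 0.15 on day 7 (edgeR adjusted p = 0.0127, 9.46e-05 and 1.09e-06). Ctso, the least abundant of the tested cysteine cathepsins, had 22.2 and 22.4 FPKM without bFGF and 6.64 and 5.69 with it on day 7 (-1.31 ± 0.12). Ctsf had 44.1 and 49.1 without bFGF and 15.2 and 12.4 with it (-1.22 ± 0.21), all far above its day 0 level.

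Gusb was back near the level of the day 0 library by day 5 without bFGF, and it stayed lower with bFGF. On day 5 BM had 27.5 and C 27.6 FPKM, near the 28.0 of day 0, while B had 10.4 and BC 9.36. On day 7 the values were 25.4, 28.9, 9.51 and 8.51 in the same order, a log2 fold change of -1.04 ± 0.12 (edgeR adjusted p = 3.92e-06). Scarb2 had 90.4 and 98.3 FPKM without bFGF and 43.2 and 51.9 with it on day 7 (-0.45 ± 0.19, edgeR adjusted p = 0.0402). Scarb2 did not pass the test once any 1 of the 4 day 7 libraries was left out, while the other 5 of these genes passed in each of the 16 fits without 1 library. On day 3 the B library, at 32.0 FPKM, lay below BC, at 58.8.

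**Figure D3:**
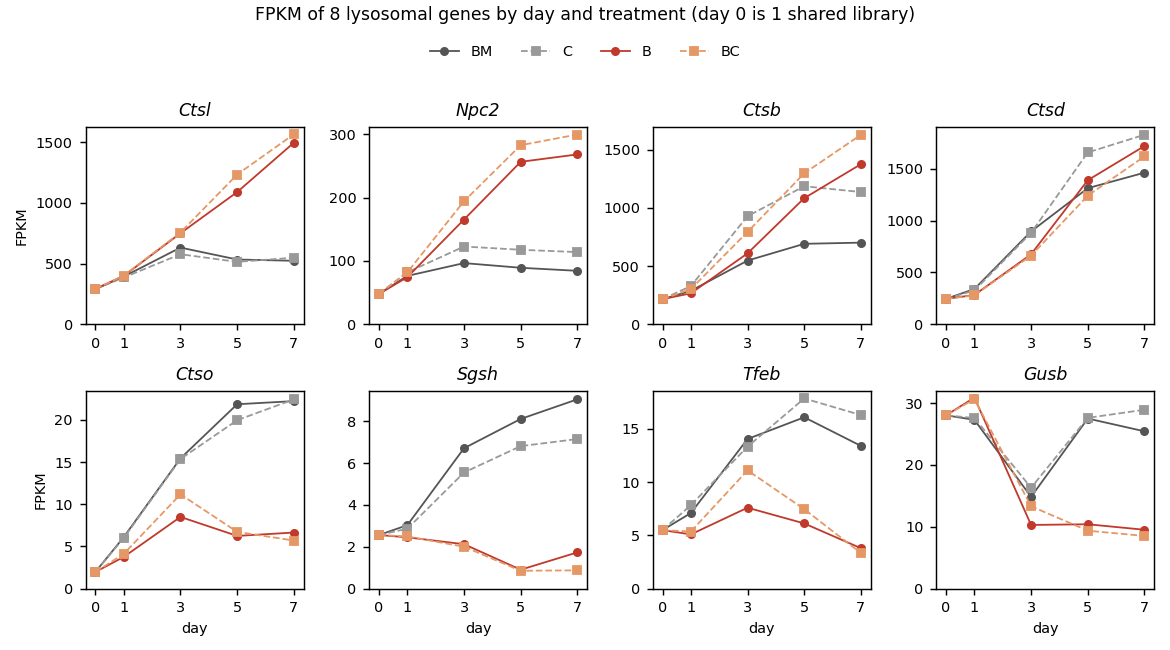
FPKM (vertical axis, from 0) of 8 lysosomal genes on days 0 to 7 in BM and C (grey) and in B and BC (red and orange), with 1 library per point and the day 0 library shared. Ctsl and Npc2 keep rising only in the bFGF libraries, Ctsb and Ctsd rise in all 4 treatments, and Ctso, Sgsh, Tfeb and Gusb end lower in the bFGF libraries.

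The other 21 tested genes were not called in 1 direction on day 7 under all 7. Psap, Ctsb, Lgmn, Hexa, Asah1, Ctsa, Lipa and Lamp1 were higher with bFGF on day 7 under both TMM and total counts. After quantile normalization Psap (-0.44), Ctsb (-0.55) and Lamp1 (-0.27) were lower, and the other 5 did not pass the test. Ids, a sulfatase of heparan and dermatan sulfate, was lower under both, at 15.93 and 15.95 FPKM without bFGF and 9.42 and 8.39 with it (-0.30 ± 0.12 and -0.83 ± 0.13). Psap had 593 and 676 FPKM without bFGF and 1041 and 1060 with it, a log2 fold change of 1.27 ± 0.10 with TMM and 0.73 ± 0.09 with total counts. Asah1, the acid ceramidase, had 139 and 119 FPKM without bFGF and 184 and 168 with it (0.99 ± 0.08 and 0.45 ± 0.08). Ctsd, Gaa and Ppt1 were higher with TMM and did not pass the test with total counts, and Lamp2, Neu1, Manba and Npc1 were higher with TMM and had a negative value that did not pass the test. After quantile normalization Ctsd (-1.10) and Lamp2 (-0.51) passed the test as lower, and Gaa (-0.21) did not pass it. Idua and Mcoln1 were higher with TMM (0.25 ± 0.09 and 0.28 ± 0.09) and lower with total counts (-0.28 ± 0.10 and -0.26 ± 0.09). Grn, the precursor of the granulins, Tpp1 and Man2b1 did not pass the test with TMM and were called lower with total counts and in both limma fits on FPKM, and Grn and Tpp1 also after quantile normalization. Grn had 396 and 473 FPKM without bFGF and 276 and 364 with it.

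**Figure D4:**
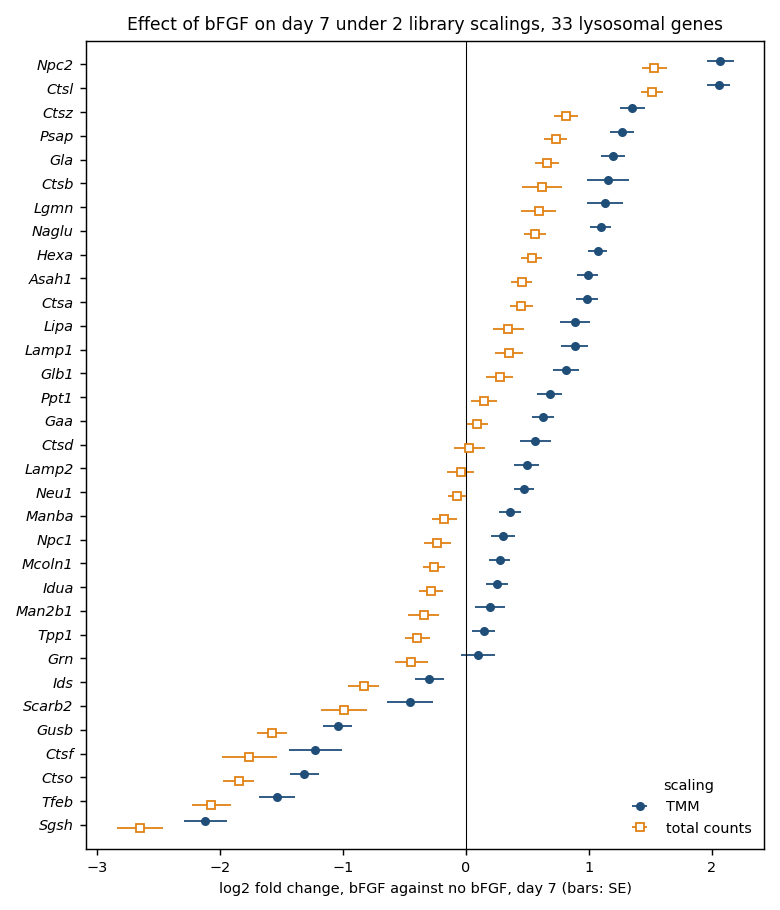
Log2 fold change of bFGF against no bFGF on day 7 with its SE (horizontal axis) for the 33 tested lysosomal genes, with TMM scaling (filled circles) and scaled to total counts (open squares). Total counts place every gene further left, so that 9 genes from Lamp2 down to Grn change sign, while the 14 above Ppt1 stay higher and the 7 at the foot stay lower.

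The effect of bFGF differed between days for 28 of the 33 genes by the test of the day by bFGF interaction, where 76.3% of all tested genes did. After quantile normalization 18 did (69.9% of all genes). In 6 genes it was called in opposite directions on different days, where 5.36% of all genes were. The count was 3 with total counts (5.45% of all genes) and 1 after quantile normalization (4.25%). Ctsa, the protective carboxypeptidase of the complex that holds beta-galactosidase and neuraminidase, had 110 and 132 FPKM without bFGF and 77.3 and 102 with it on day 3, and 95.7 and 122 against 142 and 152 on day 7. Its log2 fold change with bFGF was -0.34 ± 0.09 on day 3 and 0.99 ± 0.09 on day 7 (edgeR adjusted p of the interaction 8.38e-06). Lipa, the acid lipase that frees cholesterol and fatty acids, was lower on day 1 (-0.53 ± 0.12) and higher on day 5 (0.84 ± 0.12) and day 7 (0.89 ± 0.12).

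The further lists were counted for bFGF on day 7 as well, where 38.8% of all tested genes were higher and 39.6% lower with TMM, and 21.9% and 59.0% with total counts. Of 18 further hydrolases and activators, 5 were higher and 4 lower with TMM, and 4 and 11 with total counts. Acp2, a lysosomal acid phosphatase, had 21.9 (BM) and 24.6 FPKM (C) without bFGF and 2.74 (B) and 3.10 (BC) with it (log2 fold change -2.33). Of 14 further membrane proteins, 7 were higher and 5 lower with TMM, and 4 and 7 with total counts. Cd68, a glycoprotein related to Lamp1, had 0.95 FPKM on day 0, 1.93 and 3.43 without bFGF on day 7, and 79.8 and 59.4 with it (5.21). Cd68 is used as a marker of macrophages. The microglia and macrophage list summed to at most 3.53 FPKM in the bFGF libraries and to at most 4.63 without bFGF. Within it, Cx3cr1 reached 2.25 and Tmem119 1.58 FPKM with bFGF, against 0.10 and 1.87 without. Ctns, the cystine exporter, had 10.7 and 15.8 FPKM without bFGF and 1.95 and 2.17 with it (-2.07), and Abca2, a lipid transporter, had 35.6 and 46.3 against 10.6 and 8.52 (-1.55).

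Of 17 V-ATPase subunits, 11 were higher and 4 lower with bFGF on day 7 with TMM, and 5 and 8 with total counts. Within the pump, Atp6v0d1 had 42.2 and 56.2 FPKM without bFGF and 11.7 and 9.22 with it (-1.67), while Atp6v1b2 had 55.8 and 62.8 against 91.5 and 76.0 (1.04). Of 16 sorting genes, 3 were higher and 6 lower with TMM, and 2 and 11 with total counts. Sort1, which encodes the sorting receptor sortilin, had 39.5 and 39.3 FPKM without bFGF and 12.6 and 10.6 with it (-1.23). Of 20 MiT/TFE and mTORC1 genes, 9 were higher and 8 lower with TMM, and 4 and 12 with total counts. Rheb, the small GTPase that activates mTORC1, had 46.4 and 46.4 FPKM against 108 and 114 (1.81). Of 25 autophagy genes, 15 were higher and 5 lower with TMM, and 7 and 10 with total counts. Bnip3, a receptor in the removal of mitochondria, had 40.1 and 44.5 FPKM against 209 and 169 (2.71). Of 4 tested cystatins, which inhibit cysteine cathepsins, 3 were higher and none lower with TMM, and 2 and none with total counts. Cstb, the cytosolic cystatin B, had 142 and 142 FPKM without bFGF and 353 and 323 with it (1.79). Cst6, a secreted inhibitor of cathepsin L, had 0.60 and 0.71 FPKM against 23.1 and 20.5 (5.59). The log2 fold changes in these 2 paragraphs are with TMM scaling, and each named gene passed the test in edgeR in the same direction with total counts. The other scalings and tools are not given for these further genes. Psap, Ctsb and Lamp1 also passed with both and were lower after quantile normalization.

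CHIR99021 went with smaller differences. In the additive fit of days 1 to 7, none of the 33 genes passed the test for CHIR99021, where 0.337% of all tested genes did. In edgeR 8 of the 33 had an unadjusted p under 0.05, as did 1126 of all 11272 tested genes. DESeq2 called 2 higher and 1 lower, where 0.772% of all genes were higher and 1.72% lower. After quantile normalization limma called 1 higher, where 0.169% of all genes were higher and 0.47% lower. The additive fit carries the change of the bFGF effect between days in its error, with a biological coefficient of variation of 24.7% against 10.04% in the day by bFGF fit. In that second fit, added after the first results were seen, 12 genes were higher and 1 lower with CHIR99021, where 9.72% of all tested genes were higher and 9.79% lower. The 12 were Ctsa, Ctsb, Ctsz, Tpp1, Hexa, Gaa, Neu1, Npc2, Lipa, Grn, Lamp2 and Mcoln1, the 1 was Npc1, and these 13 held under each of 7 scalings and tools, under which 6.99% of all genes were higher and 8.60% lower. No gene of the 33 passed the test for an interaction of bFGF and CHIR99021, where 0.00887% of all tested genes did, none had an unadjusted p under 0.05 in edgeR, and DESeq2 and limma called none.

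Ctsb, an abundant cysteine cathepsin, had the largest difference with CHIR99021. Without bFGF it had 288 (BM) and 329 FPKM (C) on day 1, 548 and 929 on day 3, 691 and 1186 on day 5, and 701 and 1136 on day 7. With bFGF it had 267 (B) and 303 (BC) on day 1, 610 and 794 on day 3, 1083 and 1297 on day 5, and 1375 and 1628 on day 7. The library with CHIR99021 was higher in 8 of 8 pairs of the same day and bFGF state, with a mean difference of 0.44 ± 0.26 (SD, n = 8 pairs) on the log2(FPKM + 1) scale and a log2 fold change of 0.43 ± 0.08 (edgeR adjusted p = 0.0054).

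Ctsz was higher with CHIR99021 in 8 of 8 pairs (mean difference 0.34 ± 0.12), as was Neu1, the lysosomal sialidase (0.31 ± 0.08). Hexa was higher in 8 of 8 pairs as well (0.28 ± 0.09). Tpp1, the tripeptidyl peptidase that is missing in a childhood form of ceroid lipofuscinosis, was higher in 7 of 8. Npc1 was lower in 8 of 8, by 0.15 to 0.61, while its partner Npc2 was higher in 8 of 8 (0.24 ± 0.13). Ctsb and these genes were called in a fit of these same libraries, so their pair counts are no separate support. The share of all genes with such pair counts is not given here. Ctsl and Naglu, which differed with bFGF, had mean differences with CHIR99021 of 0.02 ± 0.09 and -0.0019 ± 0.10, higher in 5 of 8 pairs each.

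**Figure D5:**
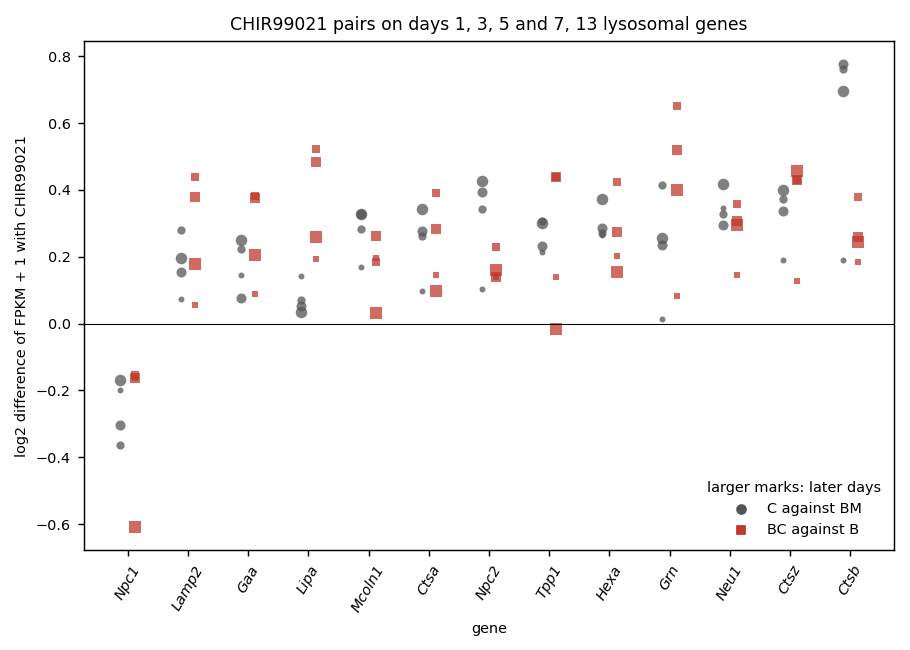
Log2 difference of FPKM + 1 between the library with CHIR99021 and the 1 without (vertical axis) for the 13 genes called in the day by bFGF fit, as C against BM (grey circles) and BC against B (red squares), with larger marks for later days. Npc1 lies below 0 in all 8 pairs, Tpp1 is just below 0 in 1 pair, and the other 11 genes lie above 0 in all 8. The genes were called on these same libraries, so the pairs are no separate support.

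Among the 12 genes with the hexamer in their promoter window shown above, the direction with bFGF on day 7 was mixed. Ctsl, Gla, Glb1 and Naglu were higher under all 7 scalings and tools, and Ctsf and Sgsh were lower under all 7. The sign or call of Ctsa, Ctsd, Gaa, Lamp1, Lgmn and Mcoln1 depended on the scaling. Of the 33 tested genes, 6 were higher and 6 lower under all 7, where 20% and 31.2% of all genes were. Between days 1 and 3 without bFGF, 11 of the 12 rose, where 30 of the 33 and 35.4% of all tested genes did. This count does not set the genes with the hexamer apart from the other genes described here. Gla, at 14.97 and 14.70 FPKM on day 1 and 12.4 and 14.1 on day 3, did not pass the test.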

How the data were processed

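The authors mapped BGISEQ-500 reads with Bowtie2 and, per the labels, estimated expression with RSEM on mm10, while the study's methods name eXpress in its place. No version of these tools is given in the sources used here. The authors deposited an expected count and an FPKM for each gene, the second scaled by transcript length and library total. Genes that a library's table leaves out were set to 0 there. Between 63.9% and 66.6% of a library's listed expected counts were whole numbers.

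The rounded expected counts of the 16 cultured libraries went into quasi-likelihood tests (edgeR 4.0.16, R 4.3.3) with TMM factors, and p-values were adjusted by Benjamini-Hochberg over all 11272 genes whose mean FPKM reached 1, with a threshold of 0.05. The main design was additive in day, bFGF and CHIR99021 (10 residual degrees of freedom), and a fit of day by bFGF with CHIR99021 (7) gave the effects by day. The study used DESeq and took fold changes against the values before treatment, which sets 1 library against 1, so these fits replace it. Alternatives used DESeq2 1.42.0, limma 3.58.1 on log2(FPKM + 1) and log2(FPKM + 0.1), with and without quantile normalization, other size factors, total counts, no filter, and each library left out. The 7 scalings and tools named in the results are TMM, the size factors of DESeq2 in edgeR, total counts, DESeq2 and the 3 limma fits. No 2 libraries held identical values, and the script was tested on simulated data.

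All 36 genes are named. Of each further list at most 3 genes are named, those with the smallest p for bFGF over days 1 to 7, and the marker genes near 0. The genes and lists were chosen with earlier results of these data known. Depth limits the counts of single genes only where they are low. The p-values rest on how these libraries depart from the fitted effects, and they measure no spread between cultures.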

Additional observations from a re-analysis of the deposited data

Results flagged for a closer look

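The size of the bFGF effect differed between days for 28 of the 33 tested genes by the test of the day by bFGF interaction, near the 76.3% of all genes, and for 18 after quantile normalization (69.9% of all genes). In 6 of these genes the effect was called in opposite directions on different days, where 5.36% of all genes were, and this is what drew attention to them. The count was 3 with total counts (5.45% of all genes) and 1 after quantile normalization (4.25%). The values are log2 fold changes with TMM scaling.

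Ctsa was lower with bFGF on day 3 (-0.34) and higher on day 5 (0.43) and day 7 (0.99), with an adjusted p of the interaction of 8.38e-06 in edgeR. Lamp2 went from -0.43 on day 3 to 0.25 on day 5 and 0.49 on day 7 (0.000318). Lipa went from -0.53 on day 1 to 0.84 on day 5 and 0.89 on day 7 (4.54e-05). Ppt1, which removes fatty acids from proteins, went from -0.27 on day 3 to 0.68 on day 7 (0.000464). Idua, the alpha-L-iduronidase of heparan and dermatan sulfate breakdown, was at -0.36 on day 1, -0.54 on day 3, -0.44 on day 5 and 0.25 on day 7 (0.000595). Mcoln1 went from -0.30 on day 5 to 0.28 on day 7 (0.00374). The lower values of Ctsa, Lamp2, Idua and Ppt1 on day 3 and of Mcoln1 and Idua on day 5 held under each of 7 scalings and tools, and so did the lower value of Lipa on day 1 and its higher value on day 5. The higher values of Lamp2, Idua and Mcoln1 on day 7 were negative with total counts. On day 5 the values of Ctsa (-0.017) and Lamp2 (-0.20) were also negative with total counts, and after quantile normalization they were -0.11 and -0.50.

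Several of these calls rest on single libraries. Of the 16 fits without 1 library, the lower value of Ppt1 on day 3 passed the test in 5, that of Ctsa in 14, where the B and C libraries of day 3 decided it, and that of Lamp2 in 15, where the B library of day 3 did. The higher value of Lamp2 on day 5 passed in 4. The lower values of Lipa and Idua on day 1 were lost when any 1 library of day 1 was left out, and the lower value of Mcoln1 on day 5 when the C library of day 5 was. On day 7 the higher value of Idua passed in 13 and that of Mcoln1 in 14.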

How the results depend on the processing

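No paired analysis was possible because each treatment and day has 1 library and no replicate number links libraries. Day is a term of both fits, and the 8 pairs of the same day and bFGF state are described without a test. No further culture shows the spread that a repeat would have. Of the 33 genes, those higher with bFGF over days 1 to 7 numbered 7 with total counts and in both limma fits on FPKM and 5 after quantile normalization, and those lower 14 and 17. Among all genes, 19.9% to 20.3% were higher and 50.4% to 50.7% lower in the former fits, and 33.2% and 34.2% after quantile normalization. On day 5, those higher were 10 with total counts, 11 in the limma fits and 7 after quantile normalization, with 16 lower after the last. The shares of all genes higher were 21.3% with total counts, 21.5% in the limma fits and 36.5% after quantile normalization, with 35.5% lower after the last. On day 7, 14 were higher and 12 lower with total counts and in both limma fits, and 7 and 13 after quantile normalization. Among all genes, 21.9% to 22.1% were higher and 58.4% to 59.0% lower in the former fits, and 36.5% and 37.1% after quantile normalization. On day 3, quantile normalization gave 20 lower, where 27.8% of all genes were lower. Fitting each day alone gave 3 higher and 3 lower on day 3, and without the filter 3 were lower on day 1. The shares of all genes under these last settings are not given here, so these counts cannot be read against them. From day 3 to day 7, 7 rose without bFGF after quantile normalization, where 11.2% of all genes did. With bFGF 14 rose with total counts, 13 in the limma fits and 12 after quantile normalization. Of all genes, 16.3% to 16.5% rose with bFGF in the limma fits and 28.1% after quantile normalization. The share with total counts is given above. For CHIR99021, DESeq2 called 3 genes, quantile normalization 1 and the day by bFGF fit 13, with the shares of all genes given above. Quantile normalization left 18 genes with an interaction of day and bFGF, where 69.9% of all genes had 1. When 1 library was left out, 0 to 7 genes were lower with bFGF on day 1, 6 to 15 were lower on day 3, and 2 to 6 rose from day 3 to day 7 without bFGF. The other counts stayed within 1.5 times when a library was left out. The cause was not tested.

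Single genes changed sign as follows, in log2 units, with total counts, limma on log2(FPKM + 1) and limma on log2(FPKM + 0.1) in that order where 3 values are given. For bFGF on day 7 these were Grn at -0.44, -0.45 and -0.45, Idua at -0.28, -0.41 and -0.45, Man2b1 at -0.34, -0.33 and -0.34, and Manba at -0.18, -0.18 and -0.19. Mcoln1 was at -0.26, -0.26 and -0.27, Neu1 at -0.068, -0.070 and -0.073, Npc1 at -0.23, -0.24 and -0.25, and Tpp1 at -0.39, -0.54 and -0.54. Lamp2 was at -0.043 with total counts. After quantile normalization, negative values on day 7 were those of Ctsb (-0.55), Ctsd (-1.10), Gaa (-0.21), Grn (-1.32), Lamp1 (-0.27), Lamp2 (-0.51), Psap (-0.44) and Tpp1 (-0.73). For bFGF on day 5, Ctsa was at -0.017, -0.019 and -0.019, Lamp2 at -0.20, -0.11 and -0.11, and Ppt1 at -0.31, -0.31 and -0.32, and after quantile normalization Ctsa was at -0.11 and Lamp2 at -0.50. From day 3 to day 7 with bFGF, Gusb was at -0.38, -0.35 and -0.38, Ids at -0.051, -0.035 and -0.037, Manba at -0.049, -0.055 and -0.057, and Mcoln1 at -0.086, -0.089 and -0.092, and Idua at -0.17 and -0.18 in the limma fits. Quantile normalization gave -0.23 for Asah1, -0.16 for Gaa, -0.45 for Grn, -0.12 for Lipa and -0.036 for Tpp1 in that comparison. In the comparisons of day 3 with day 1, no value that passed the test changed sign.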

Other observations

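Of the other lysosomal genes on day 7, Hgsnat, which acetylates the terminal glucosamine of heparan sulfate, had 23.8 and 28.0 FPKM without bFGF and 12.5 and 9.17 with it, with a log2 fold change of -0.71 with TMM and -1.24 with total counts. Galc, which degrades galactosylceramide, had 13.4 and 13.4 FPKM without bFGF and 4.78 and 3.92 with it on day 7 (-1.09 with TMM). The retromer subunit Vps35, which returns sorting receptors from endosomes, had 54.8 and 55.1 FPKM without bFGF and 96.3 and 77.8 with it (1.20), against the lower values of its cargo Sort1. Sqstm1, the autophagy receptor p62, had 593 and 665 FPKM without bFGF and 910 and 886 with it (1.07), while Ulk2, a kinase that starts autophagy, had 8.94 and 8.68 against 3.53 and 2.79 (-1.14). Of the markers of the retinal progenitors themselves, Pax6 had 165 and 152 FPKM without bFGF and 10.7 and 16.5 with it on day 7 (-2.99). The genes named in this paragraph passed the test in edgeR with TMM and, in the same direction, with total counts. The other scalings and tools are not given for them.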
